A study of Arabidopsis thaliana with 10 samples.

Results

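Genes of cuticular wax and lipid transfer were followed in RNA from Arabidopsis thaliana leaves. Members were the rows named KCS, CER, FAR or LTP followed only by digits, with each name present on a single row. This left 40 of the 33028 rows, of which 21 are KCS, 8 CER, 5 FAR and 6 LTP genes. The name FAR1, which a light-signalling gene bears, stands on 2 rows, and both were left out. Neither row was matched to a locus, so whether either is a fatty acyl reductase was not settled. The name rule uses no measured value, but this group of genes was chosen with earlier results of these data known.

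The cuticle covers the epidermis of leaves and slows the loss of water. Its waxes start from fatty acids that an elongase lengthens, with a ketoacyl-CoA synthase (KCS) choosing the chain length, and are then turned into alkanes, alcohols and esters, steps named after the eceriferum (CER) wax mutants. Fatty acyl reductases (FAR) make primary alcohols for wax and suberin, and lipid transfer proteins (LTP) are small secreted proteins that bind lipids in the cell wall.

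The study asked how leaves of plants with more Ran-GTP or more Ran-GDP age in darkness, Ran being a small GTPase of nuclear transport. RNA came from leaves 5 and 6 of plants aged 4 weeks, raised at 22 °C under 16 h of light and 8 h of night. RanG22V (the GTP form) and RanT27N (the GDP form) are overexpression lines, whose promoter and number of independent lines the labels do not state, and Col is the wild type. Leaves labelled D0 were taken at once, those labelled D3 were detached and kept 3 days in darkness, and Col was sampled at D0 alone. Each of the 5 groups, RanG22V D0, RanG22V D3, RanT27N D0, RanT27N D3 and Col D0, has 2 libraries. The labels do not say whether these came from separate plants, so the spread that p-values rest on may be technical.

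The name in a count file's header differs from the sample's label in 8 of the 10 libraries. In the headers, the libraries labelled RanG22V D0 are named RanG22V D3, and those labelled RanG22V D3 are named RanT27N D3. Those labelled RanT27N D0 are named RanG22V D0, and those labelled RanT27N D3 are named RanT27N D0. Groups follow the labels throughout, and which of both is right cannot be told apart here. By the headers, the 4 libraries labelled RanG22V are the ones taken after darkness. SAG12, a senescence protease, was high in just these 4, with 508 and 756 CPM (counts scaled to the library total) in RanG22V D0, then 139 and 439 CPM in RanG22V D3, against 0 to 1.22 CPM in the 6 others. ASN1 and DIN2, genes induced by darkness, had 1485 and 840 CPM and 2159 and 2029 CPM in RanG22V D0, and 10.8 to 42.7 CPM and 8.71 to 19.1 CPM in RanG22V D3. In the libraries labelled RanT27N D3 they had 0.120 to 0.336 CPM and 0.449 to 0.541 CPM, although the label gives 3 days of darkness. RAN1, a Ran gene, was at 851 and 913 CPM in RanG22V D0, 1086 and 1263 CPM in RanG22V D3, 560 and 620 CPM in RanT27N D0, 1518 and 1334 CPM in RanT27N D3, and 437 and 256 CPM in Col D0. The labels do not say which Ran gene the lines carry, and these counts do not tell the 2 forms apart.

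Total counts ran from 14187505 to 24496672 per library. The share of ribosomal RNA was 8.19% in replicate 2 of RanG22V D0 and 16.78% to 24.54% in the 9 others. CPM are scaled by TMM to the library, not to gene length, so values are compared between libraries and not between genes. Leaf markers were present, but summed mesophyll markers stood at 241 to 495 CPM in RanG22V D0 and 1763 to 2115 CPM in RanG22V D3, against 4452 to 8680 CPM in the 6 others. Of all tested genes, 17.6% were called lower and 15.1% higher in the RanG22V libraries than in the 6 others, shares that stand beside the marker counts below. Of 5 tested mesophyll markers, 4 were called lower in the RanG22V libraries. LHCB2.1 was not, at 151.7 and 79.0 CPM in RanG22V D0 and 908 and 1331 CPM in RanG22V D3, against 10.7 to 1166 CPM in the others. Replicates differed widely for some markers, with LHCA1 at 106 and 1585 CPM in Col D0. Epidermis markers, the cells that make the cuticle, summed to 68.8 to 80.7 CPM in RanG22V D0 and 95.4 to 114.6 CPM in RanG22V D3, against 137.9 to 256.8 CPM in the others. Of 4 tested epidermis markers ATML1 and GL2 were lower in RanG22V D0 than in Col D0 (log2 fold change -1.38 and -1.93). HDG2 and HDG11 were not called (0.17 and -0.96), and PDF1 had 0 counts in all 10 libraries. In that comparison 12.1% of all genes were called lower and 11.1% higher. Guard cell markers summed to 72.7 to 90.04 CPM in all libraries. Of 6 tested, GORK alone was called, a share near the 15.1% of all genes called higher in the RanG22V libraries. It was 8.80-fold higher in RanG22V D0 than in Col D0 and 3.58-fold higher in the RanG22V libraries than in the others. Phloem and vasculature markers summed to 172.8 to 203.3 CPM in RanG22V D0 and 132.7 to 162.3 CPM in RanG22V D3, against 320.6 to 590.1 CPM in the others, and 4 of 7 were lower in the RanG22V libraries, among them the sucrose carrier SUC2, 9.67-fold lower. Trichome markers summed to at most 0.479 CPM in the RanG22V libraries, against 1.105 to 12.9 CPM in the others, and TRY, 1 of 2 tested, was called lower. In RNA of whole leaves, fewer cells of a type and less RNA per cell cannot be told apart, and the part of these markers in the results below was not tested.

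Of the 40 members, 30 passed the filter on low counts and were tested (16 KCS, 7 CER, 2 FAR and 5 LTP). Untested were KCS7, KCS14, KCS17, KCS18, KCS21, CER4, FAR4, FAR7, FAR8 and LTP12, with at most 12 counts in any library, and 4 of them (KCS7, KCS18, KCS21 and LTP12) had 0 counts throughout. KCS18, also called FAE1, is the seed elongase, and CER4, also called FAR3, makes the primary alcohols of stem wax. KCS13 was tested, but the last 300 bases of the KCS14 transcript matched the KCS13 transcript at 99.7% over 300 aligned bases. The last 300 bases of KCS13 matched KCS14 at 100.0%, but over 102 aligned bases. Reads of this pair could thus be split between them. A gene can pass such a filter through the group where it is high, so counts and medians over the tested members only describe them.

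The pair labelled RanG22V D0 was set against Col D0 to ask how the Ran-GTP line differed before darkness, or by the headers how darkness and the line together acted. Of the 30 tested members, 11 were lower in RanG22V D0 and 0 higher, while 12.1% of all 21475 tested genes were called lower and 11.1% higher (edgeR's quasi-likelihood test, adjusted p below 0.05). DESeq2 called 13 lower and 0 higher, and 13 had an unadjusted p below 0.05 in edgeR. Shares of all genes called, here and below, are edgeR's by adjusted p. They are no baseline for counts of DESeq2 or of unadjusted p. The 11 are KCS1, KCS6, KCS8, KCS10, KCS20, CER2, CER3, CER10, CER26, FAR5 and LTP5. Most belong to elongation, with CER3 alone for alkane formation and LTP5 alone for lipid transfer. Alcohol formation enters only by FAR5, at 0 and 1 count in RanG22V D0. The median log2 fold change was -1.47 over the tested members, or -1.38 with the member at 0 counts in RanG22V D0, FAR6, held at its bound, and -0.003 over all genes.

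KCS6, also called CER6, is the condensing enzyme of the longest wax chains in shoots. Its level was 160.0 and 111.3 CPM in RanG22V D0, 553 and 522 CPM in RanG22V D3, 723 and 1103 CPM in RanT27N D0, 935 and 998 CPM in RanT27N D3, and 1069 and 577 CPM in Col D0. Both RanG22V pairs lay below the 6 other libraries, without overlap, and replicate 2 of Col D0 was the nearest to them. The log2 fold change from Col D0 was -2.60 ± 0.44 (SE, adjusted p = 0.00324, n = 2 each), a 6.07-fold lower level.

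KCS1, another condensing enzyme of wax, had 6.57 and 0.766 CPM in RanG22V D0, 14.8 and 14.8 CPM in RanG22V D3, 75.3 and 122.2 CPM in RanT27N D0, 116.4 and 113.0 CPM in RanT27N D3, and 172.1 and 43.4 CPM in Col D0. Every RanG22V library was below all others, although the Col D0 libraries differed 3.97-fold from each other. Against Col D0 the log2 fold change was -4.87 ± 0.95 (SE, adjusted p = 0.00644).

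KCS20, which acts with KCS2 in wax and root suberin, had 26.7 and 27.1 CPM in RanG22V D0, 22.2 and 20.4 CPM in RanG22V D3, 65.5 and 84.1 CPM in RanT27N D0, 55.8 and 93.6 CPM in RanT27N D3, and 104.7 and 68.1 CPM in Col D0. Against Col D0 the log2 fold change was -1.68 ± 0.35 (SE, adjusted p = 0.00803). The RanG22V libraries sat close together and apart from the rest. KCS2 itself, whose coding sequence is 81.0% identical to that of KCS20, ranged from 2.07 to 11.8 CPM with no call in any comparison.

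KCS10, known as FIDDLEHEAD for the fused organs of its mutants, had 24.9 and 12.6 CPM in RanG22V D0, 44.0 and 41.3 CPM in RanG22V D3, 67.2 and 68.7 CPM in RanT27N D0, 55.3 and 77.8 CPM in RanT27N D3, and 97.9 and 69.5 CPM in Col D0. Both RanG22V pairs lay below the others, and the difference from Col D0 was a log2 fold change of -2.16 ± 0.38 (SE, adjusted p = 0.00387). KCS8 had 2 and 0 counts in RanG22V D0, against 54 and 427 counts in Col D0. Its ratio was 271.5-fold lower, with a counting interval of 74.8 to 2248 (95%, exact, counting error only), and the adjusted p was 0.00430. The size of this ratio rested on replicate 2 of Col D0, for it was 57.7-fold against replicate 1 alone and 511.3-fold against replicate 2 alone.

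The remaining tested condensing enzymes were not called in this comparison. KCS9, which makes chains for several lipid classes, lay between 19.9 and 36.5 CPM and KCS3 between 13.0 and 42.7 CPM over the 10 libraries, with log2 fold changes from Col D0 of -0.52 ± 0.31 and -0.92 ± 0.43. KCS11 had 6.48 and 8.04 CPM in RanG22V D0 and 14.3 and 14.0 CPM in RanG22V D3, against 2.99 to 8.86 CPM in the others. KCS5, also called CER60, whose coding sequence is 80.5% identical to that of KCS6, had 6 and 16 counts in RanG22V D0 and 56 and 45 in Col D0 (adjusted p = 0.0554).

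CER10 is the enoyl-CoA reductase that ends each elongation cycle. It had 8.53 and 15.4 CPM in RanG22V D0, 20.1 and 20.7 CPM in RanG22V D3, 28.05 and 29.5 CPM in RanT27N D0, 38.3 and 36.3 CPM in RanT27N D3, and 38.6 and 25.8 CPM in Col D0. The log2 fold change from Col D0 was -1.43 ± 0.34 (SE, adjusted p = 0.0157), without overlap. AT3G55350 overlaps CER10 on the other strand and was lower too (log2 fold change -2.23), and since the sources used here give no strand setting for the counting, reads of the pair cannot be told apart.

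CER26 and CER2 are related proteins that let the elongase pass to the longest chains, CER26 mainly in leaves. CER26 had 10.5 and 3.11 CPM in RanG22V D0, 64.7 and 86.3 CPM in RanG22V D3, 163.4 and 170.8 CPM in RanT27N D0, 143.3 and 231.8 CPM in RanT27N D3, and 217.6 and 212.3 CPM in Col D0. RanT27N D3 overlapped both RanT27N D0 and Col D0, whereas RanG22V D3 was below all 3 and RanG22V D0 lower still. The log2 fold change from Col D0 was -4.98 ± 0.59 (SE, adjusted p = 0.000689), a 31.6-fold lower level.

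CER2 had 8 and 4 counts in RanG22V D0, or 0.365 and 0.191 CPM, then 5.21 and 3.24 CPM in RanG22V D3, 12.9 and 16.3 CPM in RanT27N D0, 20.5 and 11.9 CPM in RanT27N D3, and 27.7 and 8.95 CPM in Col D0. The order of the groups was again that of CER26. Relative to Col D0 its log2 fold change was -6.00 ± 0.71 (SE, adjusted p = 0.000726). CER2 is overlapped on the other strand by AT4G24520, at 23.3 to 49.6 CPM with no call in any comparison, and by AT4G07275, which was lower in RanG22V D0 (log2 fold change -5.73).

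CER3 and CER1 work together in making alkanes. CER3 had 7.62 and 4.26 CPM in RanG22V D0, 21.7 and 19.3 CPM in RanG22V D3, 26.9 and 54.7 CPM in RanT27N D0, 28.03 and 43.3 CPM in RanT27N D3, and 39.3 and 14.2 CPM in Col D0. RanG22V D0 stood below all others, but RanG22V D3 lay above replicate 2 of Col D0. The log2 fold change from Col D0 was -2.17 ± 0.55 (SE, adjusted p = 0.0208).

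CER1 was not called by the edgeR fit in any comparison, but DESeq2 called it lower in RanG22V D3 than in RanT27N D3 and in the RanG22V libraries than in the others. Its libraries of 1 group differed up to 89.4-fold, with 0.139 and 12.4 CPM in RanT27N D0 and 0.662 and 9.59 CPM in RanT27N D3. It had 1.60 and 0.718 CPM in RanG22V D0, 0 counts in both libraries of RanG22V D3, and 0 and 1.79 CPM in Col D0. Replicate 2 was the higher one in RanT27N D0, RanT27N D3 and Col D0.

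CER9, a ubiquitin ligase of the endoplasmic reticulum that restrains wax and cutin formation, was not called in any comparison, with 63.5 and 59.6 CPM in RanG22V D0, 42.4 and 38.1 CPM in RanG22V D3, 48.1 and 41.9 CPM in RanT27N D0, 40.9 and 45.0 CPM in RanT27N D3, and 48.7 and 52.6 CPM in Col D0. Both libraries of RanG22V D0 were above the 8 others. Its log2 fold change from Col D0 was 0.28 ± 0.25 (SE, adjusted p = 0.451), and that of RanG22V D3 from RanG22V D0 was -0.61 ± 0.25 (SE, adjusted p = 0.189). CER7, an exoribonuclease of the exosome that acts on wax through CER3, lay between 2.75 and 7.79 CPM and was not called in any comparison.

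Among the reductases, FAR5, known from suberin alcohols of roots and seed coats, had 0 and 1 count in RanG22V D0, against 28 and 32 counts in Col D0. The ratio was 67.7-fold lower, with a counting interval of 11.7 to 2719, at an adjusted p of 0.0484. FAR5 had 1 and 15 counts in RanG22V D3, 14 and 321 in RanT27N D0, and 18 and 47 in RanT27N D3, so the libraries of RanT27N D0 differed 19.6-fold. FAR6 had 0 counts in all 4 RanG22V libraries, and 0 to 17 counts in the 6 others, with no call. FAR4 had at most 12 counts in a library.

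LTP5 had 27.9 and 12.3 CPM in RanG22V D0, 149.2 and 179.4 CPM in RanG22V D3, 514 and 519 CPM in RanT27N D0, 857 and 873 CPM in RanT27N D3, and 784 and 554 CPM in Col D0. The libraries of RanG22V D0 differed 2.28-fold from each other, and all 4 RanG22V libraries were below the 6 others. Relative to Col D0 its log2 fold change was -5.06 ± 0.50 (SE, adjusted p = 0.000335), a 33.3-fold lower level. LTP6 had 6 and 2 counts in RanG22V D0 and 0 in both libraries of RanG22V D3, against 173 and 8 counts in Col D0, and did not pass this comparison (adjusted p = 0.0714).

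Calls in this comparison that depended on 1 library were those of FAR5, CER3, CER10 and KCS20. FAR5 lost its call without either library of RanG22V D0, of RanT27N D3 or of Col D0 (adjusted p up to 0.214), CER3 without either library of RanG22V D0 or without replicate 1 of Col D0 (up to 0.142), CER10 without replicate 1 of RanG22V D0 (0.126) or of Col D0 (0.0674), and KCS20 without either library of RanG22V D0 (up to 0.0641). Without replicate 1 of RanG22V D0, 7 members were called.

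**Figure D1:**
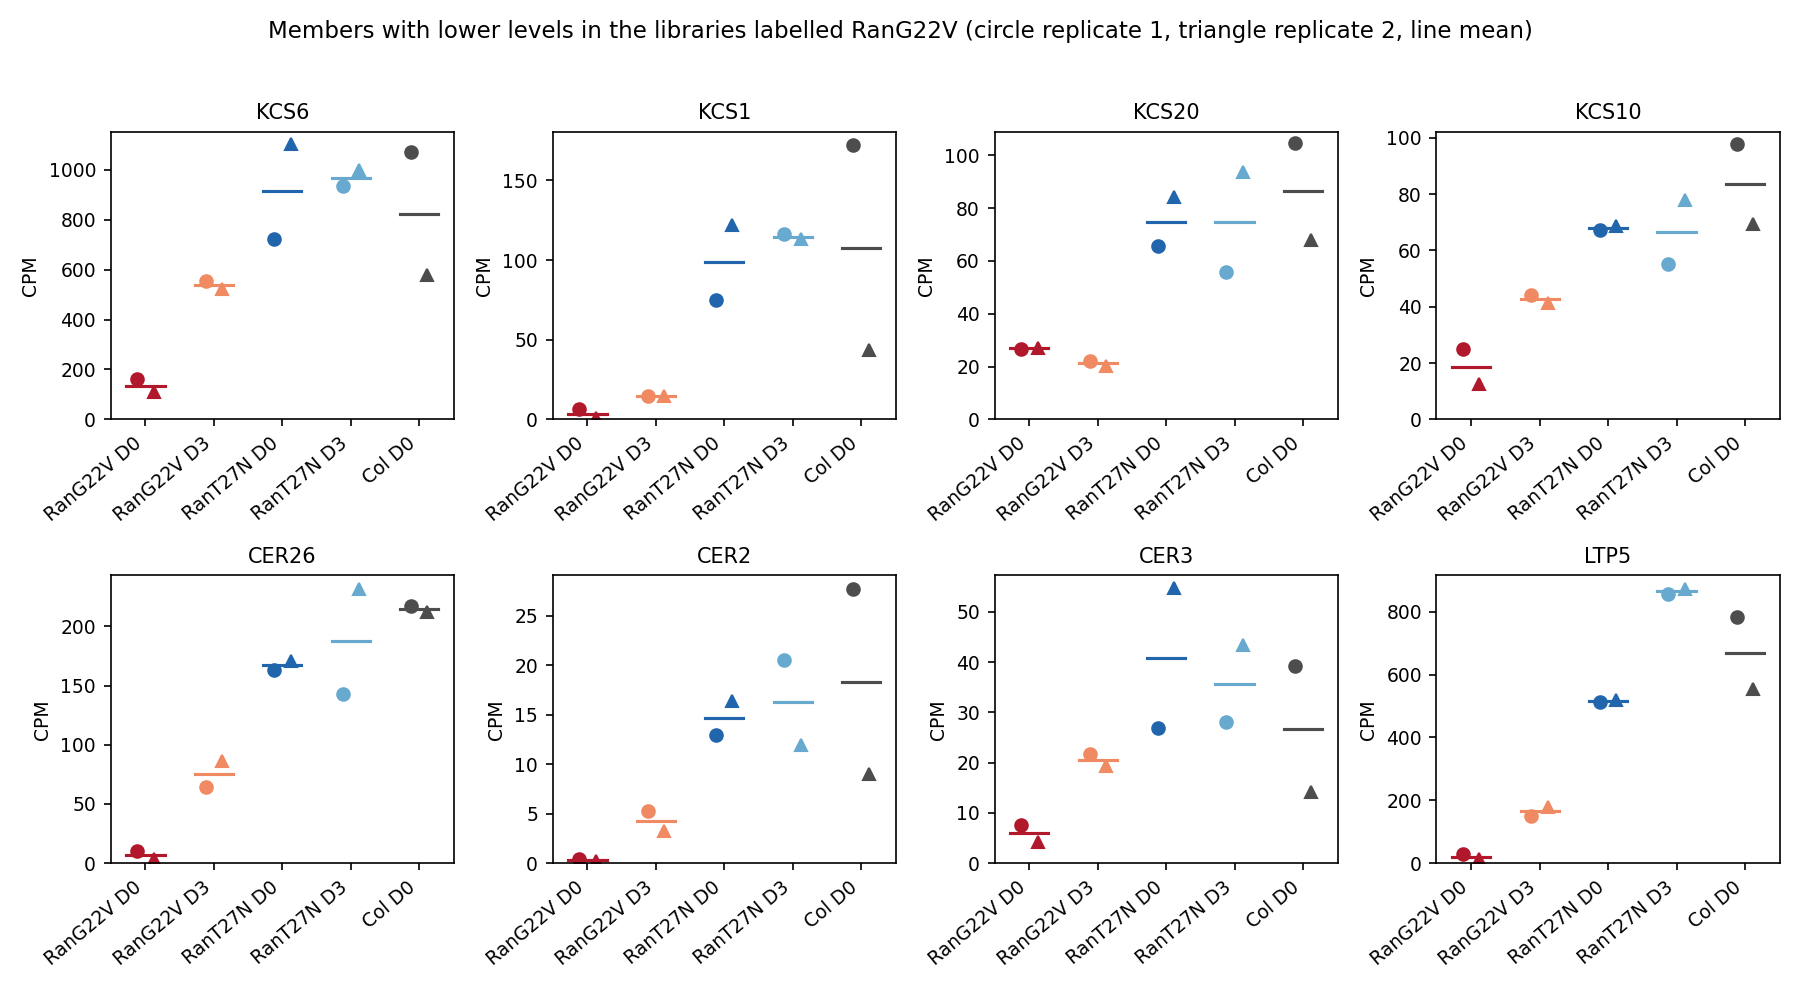
CPM (vertical axis, linear from 0) of KCS6, KCS1, KCS20, KCS10, CER26, CER2, CER3 and LTP5 in the 10 libraries, by labelled group. Circles are replicate 1, triangles replicate 2 and lines the mean of both; the 2 RanG22V groups are the lowest of each panel by their means, and for CER3 replicate 2 of Col D0 (14.2 CPM) lies below both libraries of RanG22V D3.

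The 250 bases before the annotated start of KCS6, CER26 and LTP5 are shown because these 3 genes, from elongation and lipid transfer, have the highest mean CPM among the members called lower in the RanG22V libraries. They are RefSeq sequences of TAIR10.1, each read 5′ to 3′ on the gene's strand, which is the minus strand, at chr1:25715025-25715274 for KCS6, chr4:8016583-8016832 for CER26 and chr3:19139424-19139673 for LTP5. The count files carry no coordinates, and the submitters' processing notes name the earlier release TAIR10. Capitals mark the L1 box, TAAATG, a motif bound by homeodomain factors of the epidermis.

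KCS6: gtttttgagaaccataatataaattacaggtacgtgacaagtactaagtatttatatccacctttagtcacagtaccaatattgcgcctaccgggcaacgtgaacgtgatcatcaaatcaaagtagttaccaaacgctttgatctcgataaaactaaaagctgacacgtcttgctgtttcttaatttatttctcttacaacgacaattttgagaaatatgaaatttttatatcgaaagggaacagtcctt
CER26: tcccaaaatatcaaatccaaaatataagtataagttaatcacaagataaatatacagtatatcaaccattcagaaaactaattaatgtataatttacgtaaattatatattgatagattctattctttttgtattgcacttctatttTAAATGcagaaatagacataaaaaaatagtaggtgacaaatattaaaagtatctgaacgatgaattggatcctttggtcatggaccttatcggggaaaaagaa
LTP5: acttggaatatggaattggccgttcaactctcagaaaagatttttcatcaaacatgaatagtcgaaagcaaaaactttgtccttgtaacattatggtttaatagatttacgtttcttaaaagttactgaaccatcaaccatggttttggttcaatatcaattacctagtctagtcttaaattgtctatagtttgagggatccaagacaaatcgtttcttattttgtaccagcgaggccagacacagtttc

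CER26 holds the box 103 bases before the start on the gene's strand. Searched on both strands, it occurred in the window of 13 of the 40 members, in 3 of the 13 members called in any comparison of the RanG22V libraries (CER26, FAR5 and KCS10), and in 26.1% of 27443 promoters. The G-box, CACGTG, was in the windows of 0 of the 40 members and 6.5% of all promoters. The evening element, AAATATCT, a clock motif, was in the windows of 2 members, KCS8 among the called ones, and in 4.8% of all promoters. No motif of the 3 contains another, and a match or its absence in such a window only describes the sequence.

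LTP3 and LTP4 lie side by side on chromosome 5, 2996 bases apart on opposite strands, and respond to abscisic acid and drought. Their coding sequences are 84.5% identical (294 of 348 aligned positions), so the last 90 coding bases (RefSeq, TAIR10.1, 5′ to 3′) are shown to let the pair be told apart, with the 8 differing bases in capitals.

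LTP3: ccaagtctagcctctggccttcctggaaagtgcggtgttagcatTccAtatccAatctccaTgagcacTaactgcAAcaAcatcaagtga
LTP4: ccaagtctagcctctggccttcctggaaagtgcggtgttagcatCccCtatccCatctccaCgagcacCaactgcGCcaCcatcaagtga

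The ends of the 2 transcripts were 66.9% identical over 281 aligned bases, less alike than the coding part. LTP3 had 6.80 and 0.383 CPM in RanG22V D0, 201.6 and 45.1 CPM in RanG22V D3, 10.8 and 390 CPM in RanT27N D0, 98.8 and 818 CPM in RanT27N D3, and 20.0 and 26.3 CPM in Col D0. LTP4 had 2.78 and 0.383 CPM in RanG22V D0, 142.9 and 6.71 CPM in RanG22V D3, 3.79 and 235.2 CPM in RanT27N D0, 8.12 and 181.0 CPM in RanT27N D3, and 1.70 and 0.727 CPM in Col D0. In both genes replicate 2 was high in both RanT27N pairs and replicate 1 in both RanG22V pairs.

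LTP2, a gene of epidermal cell walls, did the same, with 7.39 and 3.16 CPM in RanG22V D0, 43.9 and 13.4 CPM in RanG22V D3, 5.96 and 35.5 CPM in RanT27N D0, 4.45 and 24.8 CPM in RanT27N D3, and 1.85 and 5.60 CPM in Col D0. Replicates of a group differed up to 62.1-fold for LTP4, 36.2-fold for LTP3 and 5.95-fold for LTP2, all in RanT27N D0. None of the 3 genes was called by the edgeR fit in any comparison. DESeq2 called LTP3 and LTP4 lower in RanG22V D0 than in RanT27N D0 and higher in RanG22V D3 than in RanG22V D0. LTP4 in RanT27N D0 against Col D0 gave a fitted log2 fold change of 6.61 ± 2.31 (SE, adjusted p = 0.455).

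**Figure D2:**
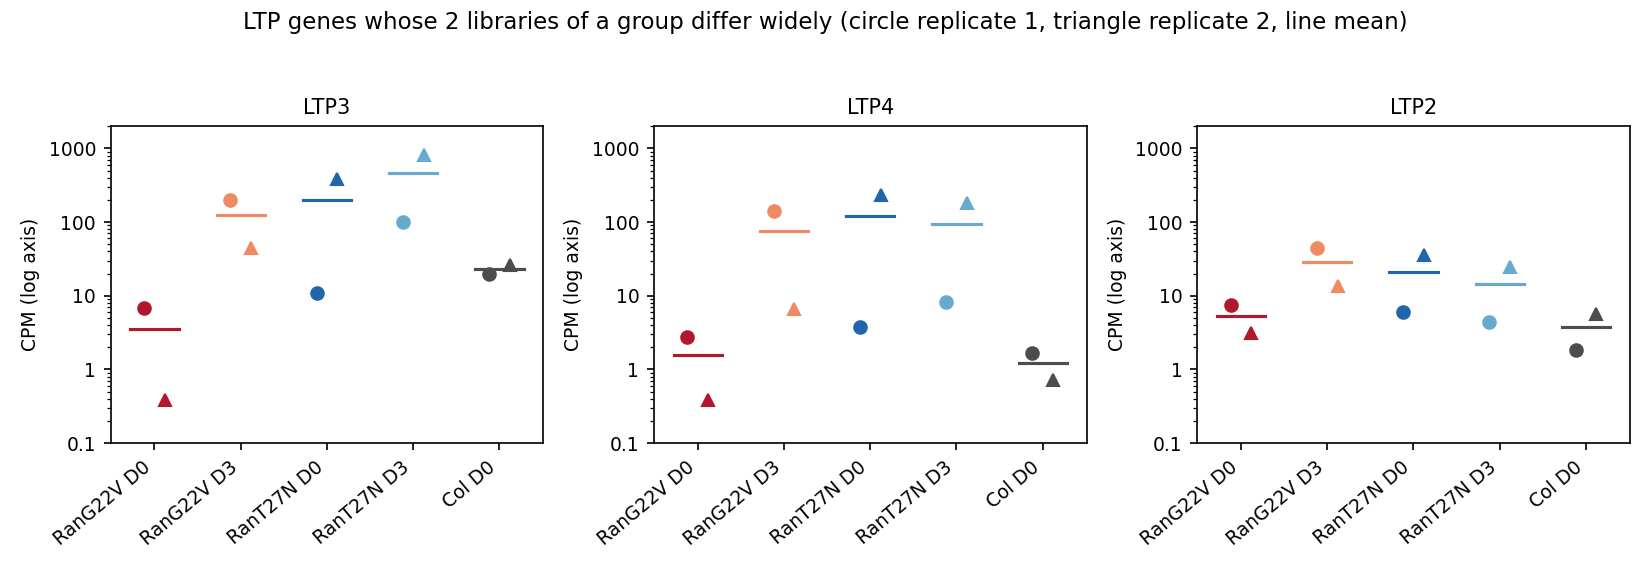
CPM (vertical axis, logarithmic) of LTP3, LTP4 and LTP2 by labelled group, with circles for replicate 1, triangles for replicate 2 and lines for the mean of both. LTP4 had 3.79 and 235.2 CPM in the 2 libraries of RanT27N D0.

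Summed over the 6 LTP members, RanG22V D0 had 45.2 and 16.3 CPM and RanG22V D3 537 and 245 CPM, against 539 to 1898 CPM in the 6 others, so replicate 1 of RanG22V D3 came near the lowest of the others. The 21 KCS members summed to 278.5 and 206.9 CPM in RanG22V D0 and 740.0 and 693.9 CPM in RanG22V D3, against 850.2 to 1539 CPM elsewhere. The 8 CER members summed to 96.2 and 88.6 CPM in RanG22V D0 and 161.9 and 172.5 CPM in RanG22V D3, against 275.7 to 381.3 CPM elsewhere. These sums rest on few genes and do not show a change of every member. KCS6 alone held 160.0 and 111.3 CPM in RanG22V D0 and 577 to 1103 CPM in the 6 others. CER26 held 143.3 to 231.8 CPM in the 6 others, and CER9 63.5 and 59.6 CPM in RanG22V D0. The row LP1, which holds LTP1 and is no member by its name, was at 82.8 and 62.3 CPM in RanG22V D0, against 503 and 449 CPM in Col D0 (log2 fold change -2.71, adjusted p = 0.00946).

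The pair labelled RanG22V D0 was also set against RanT27N D0, which by the labels compares the 2 lines before darkness and by the headers compares RanG22V after and before darkness. The 11 members called against Col D0 were called lower here as well, and 0 were higher, beside 9.36% of all genes lower and 8.25% higher. The comparison shares the RanG22V D0 libraries with that against Col D0, so it is not a second, separate observation. DESeq2 called 16 lower. The median log2 fold change of the tested members was -2.20, or -1.92 with FAR6 at its bound, and -0.07 over all genes.

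The log2 fold changes of RanG22V D0 from RanT27N D0 were -5.68 for CER2, -4.75 for KCS1, -4.68 for LTP5, -4.62 for CER26, -2.78 for CER3, -2.75 for KCS6, -1.86 for KCS10, -1.47 for KCS20 and -1.26 for CER10. KCS8 had 2 counts against 188, an 85.6-fold lower ratio (counting interval 23.4 to 712), and FAR5 1 count against 335, 305.2-fold lower (54.4 to 12090). Of the 335 counts of FAR5, replicate 2 of RanT27N D0 held 321, and the ratio was 27.7-fold against replicate 1 alone. LTP3 and LTP4 missed the threshold (adjusted p = 0.0614 and 0.0885). Without replicate 1 of RanG22V D0 7 members were called, and without replicate 2 of it 6. CER10, with no call without replicate 1 of RanG22V D0 (adjusted p = 0.219), also lost it without either library of RanT27N D0 or of RanG22V D3. FAR5 and KCS20 lost theirs without either library of RanG22V D0 or without replicate 2 of RanT27N D0 (up to 0.147 and 0.115), KCS8 without either library of RanG22V D0 (up to 0.0980), and CER3 and KCS10 without replicate 2 of it (0.0832 and 0.0787).

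Within the line labelled RanG22V, 3 days of darkness by the labels, or RanT27N against RanG22V after darkness by the headers, went with higher levels of 4 members, KCS6, CER2, CER26 and LTP5, and lower levels of 0. Among all genes 1.17% were called higher and 2.77% lower. These 4 are genes of elongation and lipid transfer. In edgeR 16 of the 30 tested members had an unadjusted p below 0.05, and DESeq2 called 10 higher. Neither number has a matching share of all genes beside it. The median log2 fold change was 1.18 over the tested members and -0.02 over all genes.

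CER2 was 14.8-fold higher in RanG22V D3 than in RanG22V D0 (log2 fold change 3.88 ± 0.68, SE, adjusted p = 0.0189), CER26 11.1-fold (3.48 ± 0.55, 0.0134), LTP5 8.17-fold (3.03 ± 0.45, 0.0106) and KCS6 3.96-fold (1.99 ± 0.43, 0.0377). None of these genes reached the 6 other libraries. KCS20 did not follow them, at 22.2 and 20.4 CPM in RanG22V D3 and 26.7 and 27.1 CPM in RanG22V D0. KCS19 had 41 and 23 counts in RanG22V D3 and 1 and 2 in RanG22V D0 (adjusted p = 0.0749). The 4 calls were lost without replicate 1 or without replicate 2 of RanG22V D3 (0 members called in each case, adjusted p up to 0.192), 2 were left without replicate 1 of RanG22V D0 and 1 without replicate 2 of it, and KCS6 also lost its call without either library of RanT27N D3 (up to 0.0539).

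After darkness by the labels, RanG22V D3 was set against RanT27N D3, a pair that the headers name RanT27N after and before darkness. Of the 30 tested members, 2 were lower in RanG22V D3, KCS20 and LTP5, and 0 were higher. The share of members called lower, 6.7%, was near the 6.92% of all genes, of which 3.9% were higher. LTP5 was 5.27-fold lower (log2 fold change -2.40 ± 0.44, SE, adjusted p = 0.0113) and KCS20 3.51-fold lower (-1.81 ± 0.35, 0.0132). KCS1 and CER2 just missed the threshold (log2 fold change -2.96 and -1.95, adjusted p = 0.0596 and 0.0566). CER1 had 0 counts in RanG22V D3, against 11 and 171 in RanT27N D3, at least 31.9-fold lower with a floor of 3 counts per library (adjusted p = 0.120), a bound that was 3.99-fold against replicate 1 of RanT27N D3 alone. The median was -0.75 over the tested members and 0.01 over all genes.

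DESeq2 called 7 members lower in RanG22V D3 than in RanT27N D3. Both edgeR calls were lost without either library of RanG22V D3 (adjusted p up to 0.106), and KCS20 also without replicate 2 of RanT27N D3 (0.0705). Leaving out replicate 1 of Col D0 gave 5 called members and leaving out replicate 2 gave 6, although Col D0 is not part of this comparison and enters through the shared spread.

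**Figure D3:**
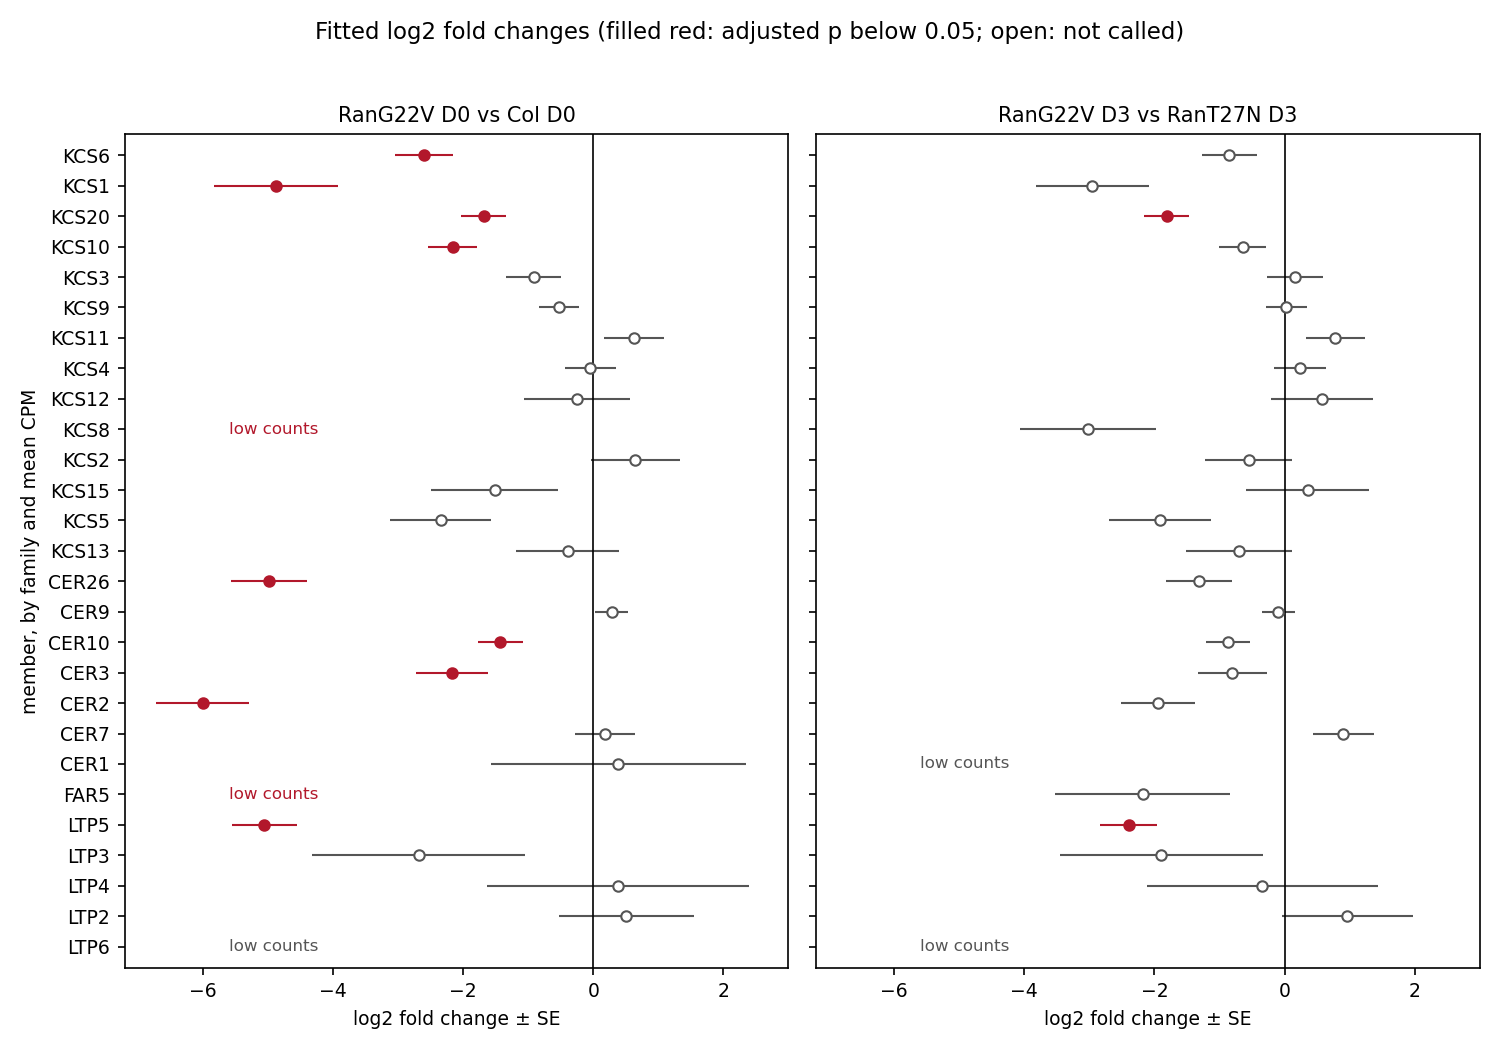
Fitted log2 fold change with its SE (horizontal axis) for the tested members with a mean of at least 1 CPM, RanG22V D0 against Col D0 on the left and RanG22V D3 against RanT27N D3 on the right. Filled red points passed an adjusted p of 0.05, open points did not, and members with few counts in RanG22V carry words in place of a point (red for called); on the left the called points lie between -6.00 (CER2) and -1.43 (CER10), and on the right only KCS20 and LTP5 were called.

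Between RanT27N D0 and Col D0, or by the headers RanG22V and Col before darkness, edgeR and DESeq2 called 0 members, 3 had an unadjusted p below 0.05 in edgeR, and 0.247% of all genes were called in either direction. Between RanT27N D3 and RanT27N D0, by the headers the 2 lines before darkness, both tools called 0 members, 1 had an unadjusted p below 0.05 (KCS4, log2 fold change -1.32 ± 0.40, SE), and 0.345% of all genes were called. In these comparisons KCS6 had 723 and 1103 CPM in RanT27N D0, 935 and 998 CPM in RanT27N D3, and 1069 and 577 CPM in Col D0, groups that all overlap.

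Whether the change from D0 to D3 differed between the labelled lines was tested as the change in RanG22V minus the change in RanT27N. By the headers, this asks whether the difference of the lines changed with darkness. edgeR called 0 members, with 8 at an unadjusted p below 0.05 and 0.21% of all genes called, while DESeq2 called 4. The log2 differences were 3.73 ± 0.86 for CER2, 3.31 ± 0.72 for CER26, 2.29 ± 0.60 for LTP5 and 1.90 ± 0.59 for KCS6 (SE, adjusted p = 0.133, 0.114, 0.180 and 0.239). The rise called in the RanG22V libraries was not shown to differ from the change in the RanT27N libraries by the main test. Leaving out either library of Col D0 gave 1 called member.

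All 4 libraries labelled RanG22V were then set against the 6 others, which by the headers is leaves after darkness against leaves before it. In the RanG22V libraries 13 of the 30 tested members were lower and 0 higher, beside 17.6% of all genes lower and 15.1% higher. They are the 11 named above and also KCS5 and LTP6. The median log2 fold change was -1.25 over the tested members, or -1.17 with FAR6 at its bound, and 0.02 over all genes. Among these 13, the RanG22V libraries overlapped the others for CER3 and FAR5. The lack of overlap in the rest partly follows from their being called here, and its share among all genes was not counted.

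Fitted log2 fold changes were -3.90 for CER2, -3.86 for KCS1, -3.54 for LTP5, -3.06 for CER26, -2.26 for KCS5, -1.74 for KCS6, -1.71 for KCS20, -1.62 for CER3, -1.35 for KCS10 and -1.06 for CER10, each with an SE of at most 0.62 and an adjusted p of at most 0.00942. KCS8 had 29 counts over the 4 libraries, against 895 over the 6, FAR5 17 against 460, and LTP6 8 against 336, the last a 27.8-fold lower ratio (counting interval 13.9 to 64.9). Of those 336 counts of LTP6, replicate 1 of RanT27N D0 held 109 and replicate 1 of Col D0 held 173. FAR5 lost its call without replicate 1 of RanG22V D0 (adjusted p = 0.0541).

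Set against the mean of the 6 other libraries, the level left differed between members and between the RanG22V pairs. In RanG22V D0 it was 1.70% for CER2, 2.94% for LTP5, 3.43% for KCS1, 3.57% for CER26, 15.1% for KCS6, 17.3% for CER3, 25.8% for KCS10, 34.2% for KCS20 and 36.6% for CER10. In RanG22V D3 it was 25.8% for CER2, 24.0% for LTP5, 13.8% for KCS1, 39.8% for CER26, 59.6% for KCS6, 59.6% for CER3, 58.7% for KCS10, 27.04% for KCS20 and 62.3% for CER10. KCS20 and KCS5 (21.8% and 18.6%) were thus about as low in both pairs, while the other 8 of these 10 stood higher in RanG22V D3. Of the 3 called members with few counts, KCS8 was at 0.577% in RanG22V D0 and 10.2% in RanG22V D3, FAR5 at 0.710% and 11.6%, and LTP6 the other way at 6.73% and 0%. These shares are descriptions of 2 libraries a pair and carry no test.

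Other genes of the cuticle were read from lists of general knowledge, in the comparison of the RanG22V libraries with the 6 others. Of 19 tested genes listed for wax outside the members, 11 were lower and 0 higher, beside 17.6% of all genes lower and 15.1% higher, with a median log2 fold change of -0.97 and 0.02 over all genes. The 11 include ABCG32 and LACS2, which stood on this list although they are described below by their part in cutin. LTPG6 and LTPG2, membrane-anchored lipid transfer proteins, were 14.3-fold and 19.6-fold lower (adjusted p = 9.09e-05 and 9.68e-05). ABCG32, an exporter of cutin precursors, was 4.90-fold lower, and the acyl-CoA synthetases LACS1 and LACS3 were 5.94-fold and 3.78-fold lower. LACS2, which activates fatty acids for cutin, had 0 to 0.502 CPM in the RanG22V libraries, against 2.35 to 6.56 CPM in the others.

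Against Col D0 alone, 10 of these 19 genes were lower in RanG22V D0 and 1 higher, beside 12.1% and 11.1% of all genes. The wax exporters ABCG11 and ABCG12 were 3.73-fold and 3.00-fold lower (adjusted p = 0.00144 and 0.0102), and both were called higher in RanG22V D3 than in RanG22V D0. LTPG5 was the one that was higher, at 72.0 ± 12.2 CPM in RanG22V D0 and 7.93 ± 1.13 CPM in Col D0 (SD, n = 2), but it also stood at 161.5 and 79.9 CPM in RanT27N D0. The summed level of the list was 387 to 391 CPM in RanG22V D0 and 366 to 438 CPM in RanG22V D3, against 453 to 882 CPM in the others.

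Of 10 tested cutin genes, 7 were lower in the RanG22V libraries than in the others and 0 higher, again beside 17.6% and 15.1% of all genes, with a median log2 fold change of -2.59. CYP86A2, a hydroxylase of cutin monomers, was at 17.0 ± 5.90 CPM in RanG22V D0 and 42.3 ± 6.76 CPM in RanG22V D3, against 172.3 ± 4.18 CPM in Col D0 (SD, n = 2). The acyltransferases GPAT4 and GPAT8, which join monomers to glycerol, were 5.08-fold and 8.99-fold lower, HTH 9.29-fold and CYP77A4 3.08-fold. LTL1, a lipase-like gene, had a mean of 0.0467 CPM in RanG22V D0, 13.3 and 0.476 CPM in RanG22V D3, and 1.54 to 28.5 CPM in the others. Against Col D0 alone, where 12.1% of all genes were lower, 4 of the 10 were, namely GPAT4, CYP86A2, GPAT8 and LTL1.

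Suberin, a polymer of roots and wounds, was nearly silent, with 3.49 to 8.00 CPM summed over 9 genes in the 10 libraries. Of its 6 tested genes 1 was called lower in the RanG22V libraries, a share near the 17.6% of all genes; this was CYP86A1, at 0 CPM there against 0.112 to 0.673 CPM. Of 11 tested regulators, 5 were lower and 0 higher, beside the same 17.6% and 15.1%, with a median of -0.82. MYB30, an activator of very-long-chain fatty acid genes, was at 0.066 to 1.62 CPM in the RanG22V libraries, against 5.23 to 14.8 CPM in the others (adjusted p = 0.00183). MYB16 was 5.89-fold lower, and SHN3, an activator of cuticle genes, had 0 counts in the RanG22V libraries, against 0.416 to 4.71 CPM. The epidermis factors HDG1 and ANL2 were 1.71-fold and 1.53-fold lower (adjusted p = 0.0476 and 0.0498), and the epidermis markers ATML1 and GL2 were lower in the same comparison (log2 fold change -1.35 and -1.31). The tested epidermis markers HDG2 and HDG11 were not called there (0.002 and -1.08). MYB96 and MYB94, activators of wax genes, and DEWAX, a repressor, were not called in that comparison. MYB94 was called higher in RanG22V D3, at 1.98 and 3.62 CPM, than in RanT27N D3, at 0.301 and 0.561 CPM (log2 fold change 2.68, adjusted p = 0.0450).

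**Figure D4:**
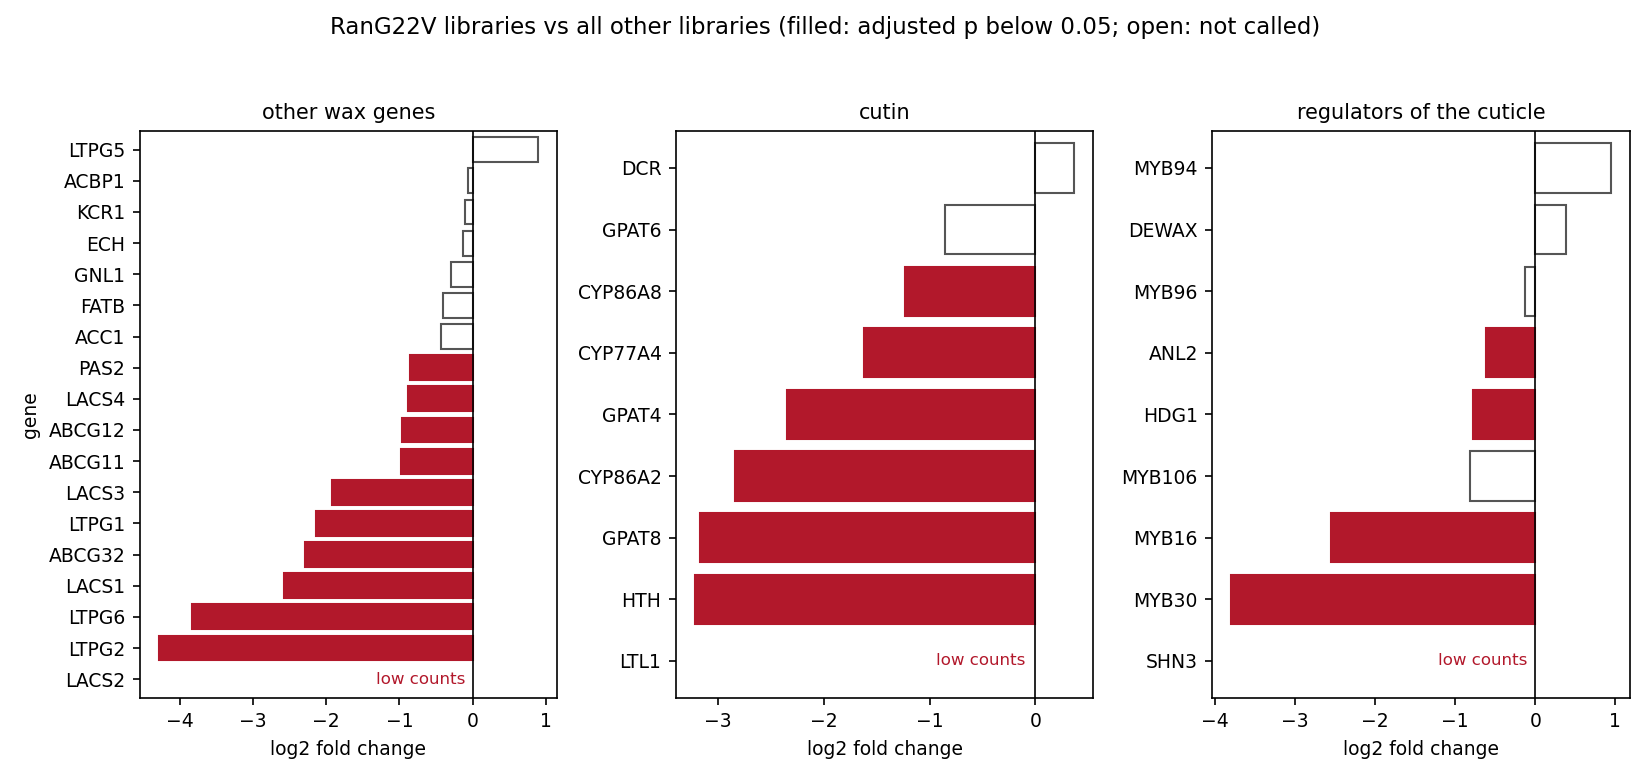
Fitted log2 fold change (horizontal axis) of the 4 RanG22V libraries from the 6 others, for other wax genes, cutin genes and regulators of the cuticle with a mean of at least 1 CPM. Filled bars passed an adjusted p of 0.05, open bars did not, and genes with few counts in a group carry words in place of a bar (red for called); all filled bars point to lower levels, from -4.29 (LTPG2) to -0.61 (ANL2).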

How the data were processed

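RNA was read in 10 leaf libraries, 2 in each of 5 labelled groups. The authors deposited raw counts per gene, 1 file per library, made with a Lexogen QuantSeq kit per the labels' protocols and with Bowtie2, edgeR and the TAIR10 genome per the submitters' processing notes; the sources used here give no versions, counting program or strand setting. Such kits read a stretch of each transcript, and no length correction was applied. Totals were 14187505 to 24496672 counts, and counts below about 10 in a group limit the folds given.

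Tests were run with edgeR 4.0.16 under R 4.3.3: filterByExpr kept 21475 genes, TMM scaled the libraries, and 1 model of 5 group means gave quasi-likelihood tests with Benjamini-Hochberg adjustment over all tested genes (called below 0.05). The biological coefficient of variation was 45%. The SE comes from the log2 fold change and the square root of F. Fits were tested on simulated data. Fitted folds of genes near 0 depend on the prior count of 2, so a counting interval, or a bound from 3 counts per library, is given. Reads without molecular identifiers are not independent molecules, so intervals and bounds cover counting error only. Counts of replicates differed beyond sampling noise (chi-square per gene 32 to 236.2), so no library was a copy of its partner.

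Of the rows, 32576 were matched to 1 locus of TAIR10.1 and 429 share a name with another row. All 40 members matched. The 11 ribosomal RNA rows stayed in the library sizes. Members and lists were chosen with earlier results of these data known. Named were every called member, the 3 members of each family with the highest mean CPM in all libraries, and up to 6 called genes of each related list by adjusted p; KCS8, FAR5, LTP6, KCS2, KCS3, KCS4, KCS5, KCS9, KCS11, KCS13, KCS19, CER1, CER7, LTP2, FAR6 and LP1 are also described, some of them chosen after their values were seen. Alternatives were DESeq2 1.42.0, its size factors, no filter on low counts, a fit of the compared libraries alone, the replicate number as a block, each library left out in turn, and, added after seeing the data, a fit without ribosomal RNA.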

Additional observations from a re-analysis of the deposited data

How the results depend on the processing

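Scaling by DESeq2's size factors and leaving out ribosomal RNA, the latter added after seeing the data, gave the same number of called members in all 8 comparisons. With no filter on low counts, 13 members were called between RanG22V D3 and RanG22V D0 (12 higher and 1, CER1, lower), 8 between RanG22V D3 and RanT27N D3 (all lower), 3 in the difference of the changes and 1 between RanT27N D0 and Col D0 (LTP4, higher). The DESeq2 test gave 10, 7, 4 and 0 in these. A fit of the compared libraries alone gave 13 (again 12 higher and CER1 lower) and 7 in the first 2. Why these numbers differ from 4, 2, 0 and 0 was not tested. These numbers and those that follow carry no share of all genes called in the same setting. For RanG22V D0 against Col D0, RanG22V D0 against RanT27N D0 and all RanG22V libraries against the others, alternatives other than leaving out a library gave 9 to 13, 10 to 16 and 13 to 15 called members.

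Leaving out 1 library at a time gave 7 to 11 called members for RanG22V D0 against Col D0, 6 to 13 for RanG22V D0 against RanT27N D0, 0 to 5 for RanG22V D3 against RanG22V D0, 0 to 6 for RanG22V D3 against RanT27N D3, 12 to 15 for all RanG22V libraries against the others, 0 to 1 for the difference of the changes, and 0 to 0 for RanT27N D0 against Col D0 and for RanT27N D3 against RanT27N D0. A group reduced to 1 library is assumed to vary like the others. The number of all genes called moved as well, so these ranges do not describe the members alone. Of 410 such results of called members, 361 kept the call, 49 lost it and 0 changed direction. Of 233 under the other alternatives, 229 kept it and 4 lost it, all in the fit of the compared libraries alone: CER10 and CER3 against Col D0 (adjusted p = 0.071 and 0.0579) and CER10 and FAR5 against RanT27N D0 (0.0635 and 0.0502).

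The replicate number as a block gave 4 called members in RanG22V D3 against RanT27N D3, with CER2 and KCS1 added, and 14 in all RanG22V libraries against the others, with KCS11 added as higher; elsewhere the numbers were those of the fit without it. Same-numbered libraries deviated together with correlations of -0.008 to 0.31 over 10 pairs of groups, 3 of them above 0.1. These are the 3 pairs among RanT27N D0, RanT27N D3 and Col D0 (0.124, 0.188 and 0.31). The headers call the replicates Set 1 and Set 2, but neither they nor the labels say what a set shares, so the numbers were not taken to pair the libraries.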
